A study of Rattus norvegicus with 12 samples.

Results

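The effect of 17β-estradiol (E2) on mammary gland mRNA was measured in rats that also received 3-methylcholanthrene (3-MC). The comparison holds 6 of the 12 arrays of the series, 3 from rats given E2+3-MC and 3 from rats given 3-MC, chosen by their treatment labels alone. The animals were female Lewis rats, ovariectomized at about 10 weeks of age and treated from 14 days later. They received 3 subcutaneous treatments 24 hr apart, and the labels give the treatment as 48 h. Doses were 4 μg/kg/day E2 and 15 mg/kg/day 3-MC, in DMSO and castor oil, and the glands were removed 24 hr after the last treatment. By their labels both compared groups received 3-MC, and they differed in E2. The other 6 arrays came from vehicle-treated rats and rats given E2 without 3-MC. RNA came from whole glands, so fewer cells of a type and less RNA per cell cannot be told apart.

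E2 enters cells and binds the estrogen receptors, which act on genes as transcription factors. In the mammary epithelium E2 is known for inducing the progesterone receptor and the growth factor amphiregulin, and for driving ductal proliferation. 3-MC is a polycyclic aromatic hydrocarbon that binds the aryl hydrocarbon receptor (AHR), which with its partner ARNT induces detoxifying enzymes such as the CYP1 family. The comparison asks how much of the estrogen response was measurable while an AHR ligand was present.

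All values are probe set intensities on a linear scale. Differences are log2 differences of intensity + 16, which understate the change of dim probe sets, and ± is the SD of 3 rats. To pass, a probe set needed an adjusted p under 0.05 (limma, Benjamini-Hochberg over all 23371 tested) and a difference of 1.5-fold or more. Median intensity ranged from 85.7 to 109 over the 12 arrays, and pairs of arrays correlated at 0.952 to 0.988. Precision is limited by the number of arrays, and an exact permutation test of 3 against 3 rats cannot go below p = 0.1.

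Members of the AHR target list, which also holds the heme oxygenase gene Hmox1, were read in each rat. Cyp1b1, an AHR-induced cytochrome P450, read 553, 101 and 588 in the 3-MC rats 1 to 3 and 154, 560 and 407 in the E2+3-MC rats. Nqo1, a quinone reductase, read 234, 72.8 and 361 in the 3-MC rats and 87.1, 346 and 215 in the E2+3-MC rats. In 3-MC rat 2 and E2+3-MC rat 1 both genes were thus within the range of the 6 rats without 3-MC, 88.3 to 211 for Cyp1b1 and 62.3 to 200 for Nqo1. Ahrr, the AHR repressor, was also lowest in these rats, at 41.3 and 51.0, and Hmox1, a heme oxygenase, read 174 and 578 there against 1119 to 2583 in the other 4. Cyp1a1, the classic AHR-induced gene, was below the intensity filter, with 44.5, 21.6 and 39.4 in the 3-MC rats and 17.98, 112 and 30.6 in the E2+3-MC rats. Of the 7 tested AHR targets none passed between 3-MC and vehicle rats, and none was at an unadjusted p under 0.05. Between E2+3-MC and E2 rats none passed and 4 were higher at an unadjusted p under 0.05. The low values in these 2 rats are a description, and whether the rats were dosed as labelled was not tested. The main counts and several lists are also given without these 2 rats. The named genes that then no longer passed are listed with the processing alternatives.

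Between the E2+3-MC and the 3-MC group the AHR targets did not separate. None of the 7 tested members passed, and the log2 differences were 0.02 ± 0.53 (SE) for Cyp1b1, 0.02 ± 0.51 for Nqo1 and 0.03 ± 0.42 for Ahrr. Without 3-MC rat 2 and E2+3-MC rat 1 they were -0.25, -0.08 and -0.07, again with no call. Myeloid markers were also low in these rats. Their list level, the median over members of the log2 level minus the 3-MC group mean, was -0.67 in 3-MC rat 2 and -0.55 in E2+3-MC rat 1 against 0.16 to 0.28 in the other 4. The part of these cells in the AHR target levels was not tested.

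**Figure D1:**
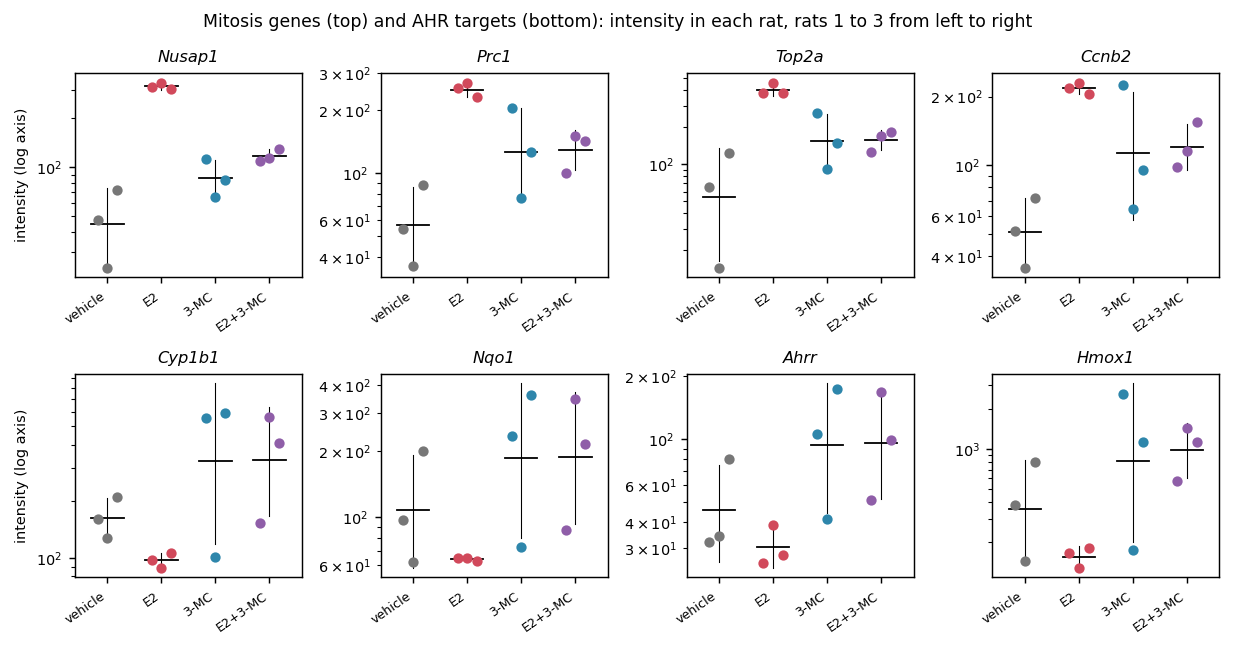
Intensity (log axis) of 4 mitosis genes (top) and 4 members of the AHR target list (bottom) in each of the 12 rats, by group. Points are rats 1 to 3 from left to right, horizontal bars are means and vertical bars SDs on the log2(intensity + 16) scale. Cyp1b1 and Nqo1 were lowest in rat 2 of the 3-MC group and in rat 1 of the E2+3-MC group, and the mitosis genes reached their highest group mean in the rats given E2 alone.

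E2 raised 24 probe sets and lowered 2 in the 3-MC-treated rats, which is 0.103% and 0.00856% of those tested and 0.111% together. Without E2+3-MC rat 2 the counts were 41 and 2, without 3-MC rat 3 they were 21 and 10, and without both rats with low AHR targets 17 and 1. The rises included the progesterone receptor, amphiregulin, 2 milk caseins, a water channel and enzymes of carotenoid, serotonin and xenobiotic metabolism. The falls were the adipocyte hormone resistin and the TGF-β family antagonist Lefty1. Of the 26 probe sets 13 listed 1 gene symbol, 11 listed 4 to 6 symbols each and 2 had none listed. The 13 genes plotted by rat were chosen as passing without overlap between the groups, so their lack of overlap adds no support. Over all tested probe sets 4.48% had groups without overlap upward and 3.48% downward. At an unadjusted p under 0.05, 657 probe sets were higher and 519 lower, 2.81% and 2.22%.

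**Figure D2:**
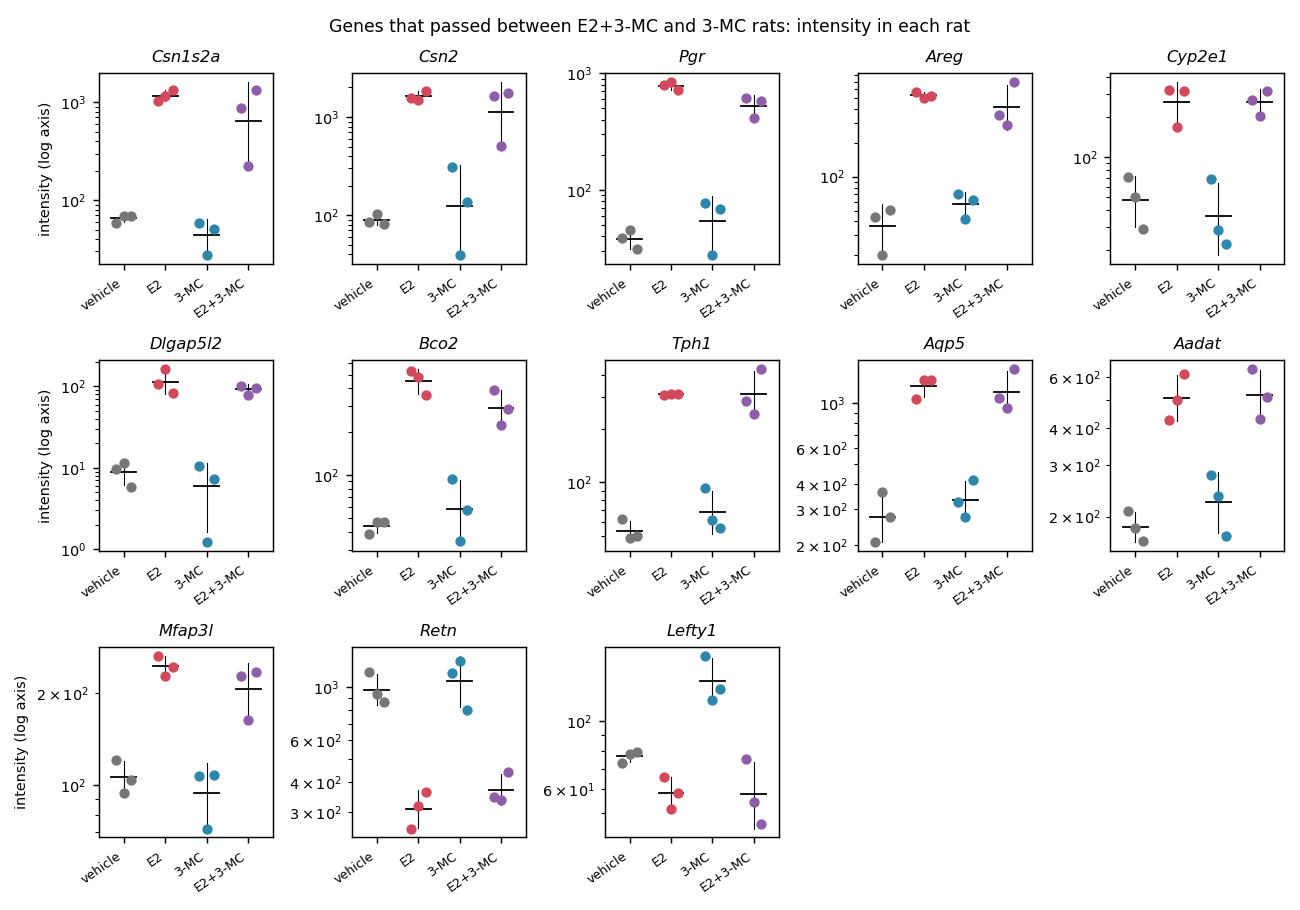
Intensity (log axis) in each of the 12 rats for the 13 genes that passed between E2+3-MC and 3-MC rats. Points are rats, horizontal bars are means and vertical bars SDs on the log2(intensity + 16) scale. By the rule that chose the genes, the E2+3-MC and 3-MC points do not overlap in any panel.

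The progesterone receptor and amphiregulin rose in every E2+3-MC rat. Pgr, which encodes the progesterone receptor, read 76.6, 27.5 and 67.8 in the 3-MC rats and 619, 411 and 575 in the E2+3-MC rats. Its mean rose from 57.3 ± 26.2 to 535 ± 110, a log2 difference of 2.96 ± 0.24 (SE, adjusted p = 0.000276, limma). Areg, which encodes the EGF receptor ligand amphiregulin, read 70.0, 42.1 and 62.2 without E2 and 356, 288 and 697 with it, a log2 difference of 2.56 ± 0.29 (adjusted p = 0.00169, limma). All E2+3-MC rats lay above all 3-MC rats in both genes, as the rule that chose them required. Of the 21 tested members of the estrogen and progesterone target list these 2 passed, both higher. A negative difference that did not pass was found in 6 members, 1 of them, Igf1, at an unadjusted p under 0.05. The list's median log2 difference was 0.12, against 0.02 over all tested probe sets. Betacellulin (Btc), another EGF receptor ligand, read 89.4 to 92.6 in the 3-MC rats and 133 to 194 in the E2+3-MC rats, but did not pass (adjusted p = 0.158, limma).

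None of the receptors themselves passed among 8 tested. Esr1, the main estrogen receptor of the gland, read 363, 412 and 150 in the 3-MC rats and 287, 201 and 273 in the E2+3-MC rats, and the groups overlapped. Ahr read 222 to 310 and 217 to 258, a log2 difference of -0.18 ± 0.17 (SE). Esr2 was below the intensity filter. Prlr, the prolactin receptor, read 303, 252 and 209 without E2 and 527, 365 and 500 with it, without overlap, at an adjusted p of 0.167 (limma).

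Among the 13 genes that passed, 2 caseins had the largest log2 differences and also the largest SEs. Csn1s2a, an alpha-S2 casein, read 59.0, 27.6 and 50.7 in the 3-MC rats and 883, 223 and 1330 in the E2+3-MC rats, a log2 difference of 3.46 ± 0.45 (SE, adjusted p = 0.00356, limma). Csn2, beta-casein, read 308, 39.2 and 135 against 1652, 502 and 1744, a log2 difference of 3.05 ± 0.53 (adjusted p = 0.0488, limma), and it passed in only 2 of the 12 fits that left out 1 rat. E2+3-MC rat 2 was the lowest of its group in both caseins, and 3-MC rat 2 the lowest of its own. Aqp5, a water channel of secretory epithelia, read 325, 275 and 416 against 1067, 944 and 1482, a log2 difference of 1.73 ± 0.22 (adjusted p = 0.00269, limma).

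These 3 were the members that passed among 25 tested of the list of milk proteins and secretory function. The list's median was 0.43, 24 of the 25 members had a positive difference and 12 were higher at an unadjusted p under 0.05, against 2.81% of all tested probe sets. Wap, the whey acidic protein, read 446, 318 and 190 against 1181, 557 and 1621 (log2 difference 1.72, adjusted p = 0.112, limma). When E2+3-MC rat 2 was left out 6 members passed, and without both rats with low AHR targets none did. Luminal epithelium markers stood beside them with a median of 0.28 and none of 24 passing. Of these 7 were higher at an unadjusted p under 0.05, against 2.81% of all tested probe sets, and 3 had a negative difference. Without both rats with low AHR targets 3 luminal markers were higher at an unadjusted p under 0.05, with a median of 0.18. Gata3, a luminal transcription factor named after its values were seen, read 727 to 882 without E2 and 1085 to 1505 with it. Whether more luminal cells took part in the milk gene values was not tested.

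Metabolic enzymes made up most of the other named rises. Tph1, which carries out the first step of serotonin synthesis in peripheral tissues, read 92.9, 61.3 and 55.2 in the 3-MC rats and 286, 243 and 434 in the E2+3-MC rats, a log2 difference of 1.96 ± 0.20 (SE, adjusted p = 0.00115, limma). Bco2, a carotenoid-cleaving oxygenase, read 92.9, 34.4 and 56.4 against 392, 222 and 288, a log2 difference of 2.07 ± 0.25. Cyp2e1, a cytochrome P450 of ethanol and small solvents, read 68.4, 28.4 and 22.05 against 272, 204 and 317, a log2 difference of 2.40 ± 0.32. The rule that chose these genes required groups without overlap, so the gap between the groups adds no support. Cyp2e1 no longer passed without E2+3-MC rat 3 (adjusted p = 0.0529, limma) or without both rats with low AHR targets. Aadat, an aminotransferase of the kynurenine and lysine pathways, rose by 1.16 ± 0.19, and Mfap3l by 1.01 ± 0.17, with calls that held in 7 and 4 of the 12 fits that left out 1 rat. Dlgap5l2 rose by 2.30 ± 0.21 from a dim 1.23 to 10.4 to between 77.8 and 103, so its fold depends on the added 16.

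The 2 genes that fell belong to different settings. Retn, the adipocyte hormone resistin, read 1143, 1287 and 800 in the 3-MC rats and 347, 338 and 443 in the E2+3-MC rats, and its log2 level fell by 1.46 (SE 0.19, adjusted p = 0.00396, limma). It was the 1 member of 15 white adipocyte markers to pass, and the list's median was -0.02. Without both rats with low AHR targets Retn did not pass. Lefty1, a secreted inhibitor of Nodal signaling, read 164, 118 and 128 in the 3-MC rats and 75.4, 54.6 and 46.1 in the E2+3-MC rats, and fell by 1.04 (SE 0.16, adjusted p = 0.0167, limma). The vehicle-treated rats read 73.1 to 79.4 for Lefty1, so the 3-MC rats were the group that stood higher.

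The 11 probe sets with several symbols cannot be assigned to single genes and are not named. Their median intensity was 116, 107 and 86.0 in the 3-MC rats and 372, 330 and 352 in the E2+3-MC rats, with log2 differences of 1.41 to 1.69. Their symbol lists overlap, so they are not 11 separate results. Of those with no symbol, probe set 10769601 showed a log2 difference of 4.34 and read 32.2 to 45.2 without E2 and 589 to 3570 with it. The other, probe set 10817759, read 97.7 to 312 against 751 to 1115, a log2 difference of 2.09.

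Promoters of the genes that passed were searched for letters of known elements in the RefSeq windows (GRCr8, 250 bases before to 50 after the start), and 11 of the 13 genes had one. The estrogen response element, GGTCA, any 3 bases and TGACC, was in none of these and in 9 of all 33469 promoters of this length. The shorter single-arm site AGGTCA, on either strand, was in 5 of the 11 (45.5%) against 16.2% of all. Tph1, which rose, and Retn, which fell, each hold it 2 times, and their windows are shown with AGGTCA and the AHR core GCGTG in capitals; the latter has no match in either. Tph1 lies at chr1:106314579-106314878, minus strand, and Retn at chr12:6508524-6508823, plus strand.
Tph1: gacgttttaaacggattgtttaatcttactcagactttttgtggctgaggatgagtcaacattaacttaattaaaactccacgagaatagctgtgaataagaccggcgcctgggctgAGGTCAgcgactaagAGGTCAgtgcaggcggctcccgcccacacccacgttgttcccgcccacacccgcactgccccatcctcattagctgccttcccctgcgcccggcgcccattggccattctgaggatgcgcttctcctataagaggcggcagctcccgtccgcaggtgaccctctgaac
Retn: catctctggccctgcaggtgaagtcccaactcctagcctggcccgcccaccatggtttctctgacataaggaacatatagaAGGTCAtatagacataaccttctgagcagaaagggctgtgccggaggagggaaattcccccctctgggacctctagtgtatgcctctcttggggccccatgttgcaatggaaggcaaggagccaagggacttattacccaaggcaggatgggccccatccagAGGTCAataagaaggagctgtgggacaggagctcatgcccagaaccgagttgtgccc

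The proliferation genes did not separate. None of 31 tested members of the mitosis list passed between E2+3-MC and 3-MC rats, none was at an unadjusted p under 0.05 and none had groups without overlap. The median log2 difference was 0.14, with a range of -0.18 to 0.40. Nusap1, a spindle protein, read 112, 65.3 and 83.9 in the 3-MC rats and 109, 114 and 130 in the E2+3-MC rats. Top2a, the topoisomerase of dividing cells, read 261, 92.0 and 148 against 127, 171 and 182. Prc1, a midzone spindle protein, read 204, 76.7 and 127 against 100, 151 and 142.

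Without 3-MC the same list moved with E2. There 28 of the 31 rose, where 1.3% of all tested probe sets rose, with a median log2 difference of 1.44. The difference between both E2 effects was negative in all 31 members and at an unadjusted p under 0.05 in 29, against 2.83% of all tested probe sets, although none passed after adjustment. Nusap1 had the smallest p (log2 -2.05, unadjusted p = 3.00e-05, adjusted p = 0.446, limma). Stmn1, a microtubule regulator, followed with -1.53, Prc1 with -1.86, Aspm, a spindle pole protein, with -1.30 and Clca1 with -1.10. The mitosis list was chosen with earlier results of these data known.

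Each group with 3-MC was also set against its counterpart without 3-MC. Across the 31 members the median log2 difference was 0.54 in 3-MC against vehicle rats and -0.76 in E2+3-MC against E2 rats. No member passed in either comparison. The list level was 0.54, -0.56 and 0.00 in the 3-MC rats and 0.00, 0.14 and 0.29 in the E2+3-MC rats. It was -0.53, -0.93 and -0.19 in the vehicle-treated rats and 0.81, 0.99 and 0.79 in the rats given E2 alone. The 3-MC rats thus spread over more than the E2+3-MC rats and overlapped the vehicle-treated rats. The E2+3-MC rats lay below every rat given E2 alone. Leaving out 3-MC rat 1 moved the median of E2+3-MC against 3-MC rats to 0.37, with 10 members higher at an unadjusted p under 0.05. Leaving out 3-MC rat 2 moved it to -0.13, and leaving out both rats with low AHR targets moved it to -0.06. Of the 31 members none passed in any of these fits. Among 28 DNA replication genes none passed between E2+3-MC and 3-MC rats, and the median was -0.07. Without 3-MC only 1 of these 28 passed with E2, with a median of 0.56. The difference between both E2 effects was negative at an unadjusted p under 0.05 in 8 of them.

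Mitosis genes share promoter letters that the list did not use. The CHR element TTTGAA was in 18 of the 26 promoters found (69.2%) against 18.3% of all, and CCAAT was in 19 (73.1%) against 37.5%, both strands counted. Both were present in 15 (57.7%) against 7.41%. The windows of Nusap1 (chr3:127057045-127057344, plus strand) and Top2a (chr10:84473044-84473343, minus strand) are shown as examples, with both elements in capitals on either strand.
Nusap1: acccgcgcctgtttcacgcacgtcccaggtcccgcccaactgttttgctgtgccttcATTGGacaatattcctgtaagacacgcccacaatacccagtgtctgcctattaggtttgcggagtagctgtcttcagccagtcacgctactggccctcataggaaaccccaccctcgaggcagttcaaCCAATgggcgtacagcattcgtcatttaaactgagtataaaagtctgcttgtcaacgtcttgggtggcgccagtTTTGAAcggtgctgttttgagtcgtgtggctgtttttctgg
Top2a: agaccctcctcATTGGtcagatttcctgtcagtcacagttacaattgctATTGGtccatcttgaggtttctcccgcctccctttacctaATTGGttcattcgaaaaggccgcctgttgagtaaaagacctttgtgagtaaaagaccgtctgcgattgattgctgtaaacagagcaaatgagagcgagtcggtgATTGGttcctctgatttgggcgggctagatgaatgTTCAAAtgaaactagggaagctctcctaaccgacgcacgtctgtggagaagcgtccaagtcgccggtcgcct

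Lipid synthesis genes were lower in the E2+3-MC rats without passing. Of 22 tested members none passed, but 13 had an unadjusted p under 0.05 downward, against 2.22% of all tested probe sets, and 10 had E2+3-MC rats all below the 3-MC rats, against 3.48%. The list's median was -0.45. Without both rats with low AHR targets 8 members were at an unadjusted p under 0.05 downward, with a median of -0.27 and none passing. Acly, Elovl6, Acss2 and Me1 passed downward when vehicle rat 2 was left out, Me1 without vehicle rat 3, Pnpla3 without 3-MC rat 1, and Acly and Pnpla3 with the muscle level, described next, as a covariate. Acss2, which makes acetyl-CoA from acetate, read 470, 434 and 447 in the 3-MC rats and 238, 228 and 248 in the E2+3-MC rats (adjusted p = 0.0817, limma). Elovl6, a fatty acid elongase, read 402 to 415 against 158 to 177 (adjusted p = 0.431, limma). Acly, the ATP citrate lyase, read 1383, 1834 and 2004 against 732, 863 and 675. Of the 3 members with a positive difference Acacb, an acetyl-CoA carboxylase, had an unadjusted p under 0.05, with 144 to 178 against 206 to 311. These members were named after their values were seen.

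Fibroblast and muscle markers also had negative medians. The fibroblast and matrix list had a median of -0.40, with 8 of 15 members lower at an unadjusted p under 0.05, against 2.22% of all tested probe sets, and none passing. A positive difference was found in 2 of the 15 members. Pdgfra, a fibroblast receptor named after its values were seen, read 552 to 591 in the 3-MC rats and 393 to 447 in the E2+3-MC rats. The list's median was -0.12 without both rats with low AHR targets. The skeletal muscle list was the most uneven, at 1.26, 1.94 and -3.25 in the 3-MC rats and -2.10, -1.59 and -3.06 in the E2+3-MC rats, with a median over its 15 members of -2.36 and no member passing. The part of muscle in the other results was not tested beyond a fit with the muscle level as a covariate, in which 21 probe sets were higher and 4 lower and Csn2, Mfap3l and Lefty1 no longer passed.

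**Figure D3:**
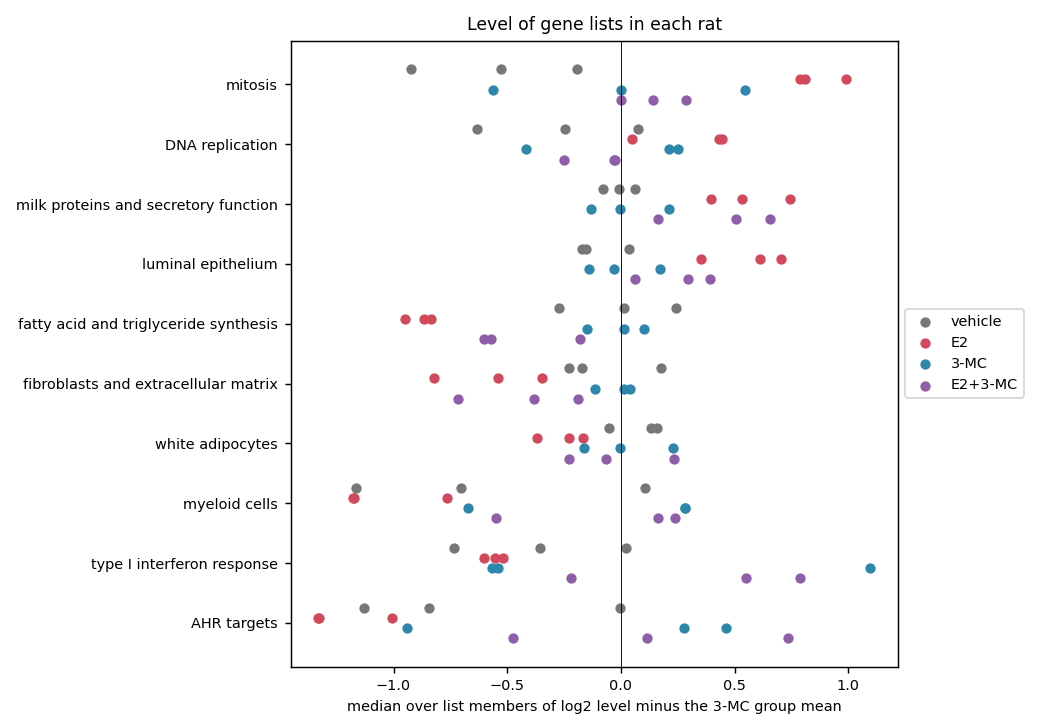
Level of 10 gene lists in each of the 12 rats, as the median over list members of the log2 level minus the mean of the 3-MC group, coloured by treatment. On the mitosis line the E2+3-MC rats (0.00 to 0.29) lie among the 3-MC rats (-0.56 to 0.54), whereas on the fatty acid and triglyceride line they lie at -0.60 to -0.18, below the 3-MC rats.

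The calls in 3-MC-treated rats were nearly a subset of those without 3-MC. Without 3-MC, E2 raised 303 probe sets and lowered 67, 1.3% and 0.287% of those tested and 1.58% together, in rats that are not part of the main comparison. Both comparisons used the spread of each probe set over all 12 arrays, so their calls are not independent. Of the 26 probe sets 25 passed there in the same direction, 96.2% of the 26 and 6.76% of the 370. The exception was Lefty1, with -0.32 without 3-MC (adjusted p = 0.470, limma). Its difference between both E2 effects was -0.72 (unadjusted p = 0.00666, adjusted p = 0.982, limma).

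Across the 303 the E2 difference was smaller under 3-MC. Of these 280 had a positive difference in the 3-MC-treated rats, with a median of 0.30 against 1.08 without 3-MC. Of the 67 lowered 64 had a negative one, with a median of -0.55 against -0.97. Over all tested probe sets 56.4% had the same sign in both E2 differences. The values without 3-MC chose the 303 and the 67 probe sets, so the larger medians there are a description. Over all 23371 probe sets the E2 differences correlated at Pearson's r = 0.45 and Spearman's rho = 0.23, across probe sets, which are not independent replicates. No probe set passed the test of the difference between both effects (limma), and 1032 had an unadjusted p under 0.05, of which 2.83% of all tested were negative and 1.59% positive.

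For the genes that passed, both E2 differences are given side by side, and none passed the test of their difference. Pgr rose by 3.89 without 3-MC and by 2.96 with it, with an unadjusted p of 0.0180 for the difference. Bco2 rose by 2.95 and 2.07 (unadjusted p = 0.0285, limma), Areg by 3.38 and 2.56 (unadjusted p = 0.0639, limma), Csn2 by 3.97 and 3.05 (unadjusted p = 0.235, limma), and the 11 probe sets with several symbols by a median of 2.47 and 1.60. Csn1s2a rose by 3.86 and 3.46 and Aqp5 by 2.08 and 1.73, and Retn fell by 1.60 and 1.46. For the last 3 the unadjusted p was 0.536, 0.271 and 0.612, which does not show that the effects were alike. Cyp2e1 rose by 2.11 and 2.40, Tph1 by 2.25 and 1.96, and Dlgap5l2 by 2.39 and 2.30. Aadat rose by 1.39 and 1.16 and Mfap3l by 1.10 and 1.01. From Cyp2e1 on, the unadjusted p for the difference ran from 0.327 for Tph1 to 0.763 for Dlgap5l2 (limma). The genes were chosen by their values with 3-MC, so these pairs are a description.

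**Figure D4:**
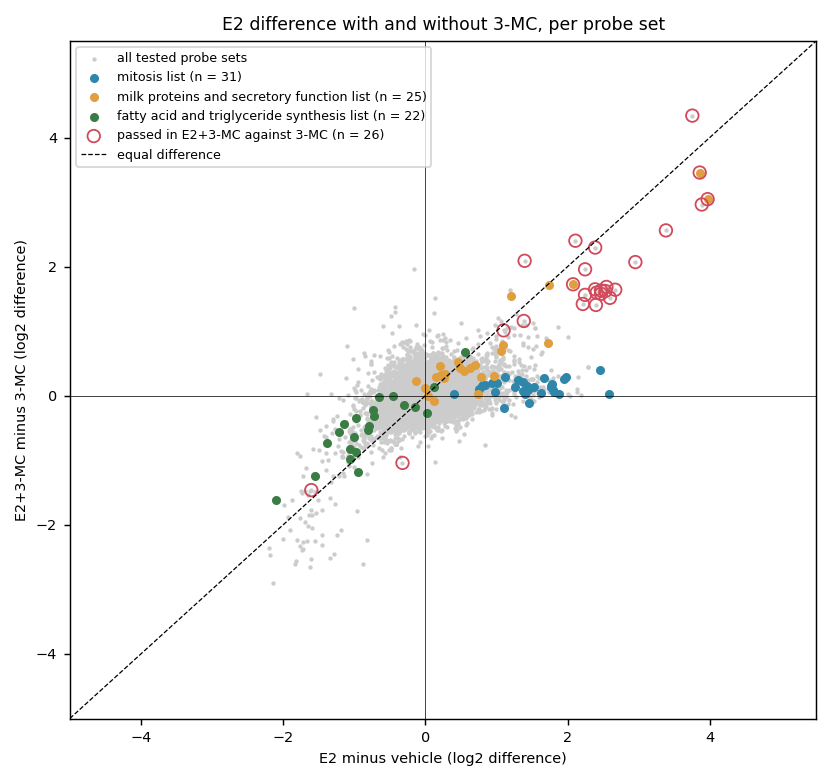
E2 log2 difference without 3-MC (E2 minus vehicle, x axis) and with 3-MC (E2+3-MC minus 3-MC, y axis) for each of 23371 tested probe sets, with 3 gene lists coloured and the 26 that passed with 3-MC ringed. Mitosis genes lie near 0 on the y axis and at a median of 1.44 on the x axis, whereas milk and lipid genes lie nearer the dashed line of equal difference.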

How the data were processed

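Gland RNA was hybridized to Affymetrix arrays, 1 rat per array. The authors deposited linear signal intensity values per probe set; the submitters' processing notes name Affymetrix Expression Console and PLIER. Log2(intensity + 16) was computed here from the deposited intensity values, the lowest 20 percent of 29214 probe sets by mean were removed, and 12 arrays were fitted with 4 group means in limma 3.58.1 (R 4.3.3), checked on simulated data. Symbols came from the platform annotation, with 15310 probe sets listing 1 symbol, 323 several and 13581 none; the brightest probe set stood for a gene. Genes were named by rule: the 15 largest rises and falls that passed without overlap, passing list members, AHR targets, receptors, the genes the study measured otherwise and the 5 smallest interaction p-values. Other list members were named after their values were seen. The comparison, lists and rule were chosen with earlier results of these data known. The labels name separate rats. Alternatives covered filter, pseudocount, scaling, model, threshold and left-out rats. Sequences are from RefSeq (GRCr8).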

Additional observations from a re-analysis of the deposited data

How the results depend on the processing

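The 26 probe sets (24 higher, 2 lower) became 42 (6 lower) with quantile normalization, 14 (11 higher) with 1 probe set per gene, 7 (0 lower) with a test against 1.5-fold and 125 (74 higher, 51 lower) with the methods' t-test unadjusted, against 0 (0 higher, 0 lower) after Benjamini-Hochberg. The lower calls were 5 with median centring, 4 in 6 arrays, 8 with array weights and, added after seeing the data, 4 with the muscle covariate and 1 without both rats with low AHR targets. With the replicate number as a block 16 rose and 0 fell; same-numbered 3-MC and E2+3-MC rats correlated at -0.085, -0.279 and 0.080, so the numbers did not pair the compared groups, while same-numbered vehicle and 3-MC rats correlated at 0.341, 0.442 and 0.564. Under the block Tph1, Aadat, Mfap3l, Retn and Lefty1 did not pass. Leaving out each rat gave 20 to 43 calls, 18 to 41 higher (most without E2+3-MC rat 2) and 2 to 10 lower (10 without 3-MC rat 3, 7 without vehicle rat 2, 4 without 3-MC rat 2). Without 3-MC the 370 calls became 652 with array weights, 207 with the block, 24 against 1.5-fold, 205 at 2-fold, 7 with the t-test adjusted and 703 unadjusted, and 89 to 449 leaving out rats. The interaction had 0 to 1 calls leaving out rats (1 without vehicle rat 3) and 1 without both rats with low AHR targets. Of the 13 named genes Csn2 held its call in 2 of 12 such fits, Mfap3l in 4, Aadat in 7, Lefty1 in 9 and Cyp2e1 in 11, and the other 8 in all 12. Without both rats with low AHR targets Csn1s2a, Csn2, Cyp2e1, Aqp5, Aadat, Mfap3l and Retn no longer passed. The cause of these changes was not tested.

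Genes that did not pass changed sign when single rats were left out: Prc1 -0.29 to 0.34, Aspm -0.23 to 0.17, Top2a -0.29 to 0.39, Ccnb1 -0.028 to 0.60, Ccnb2 -0.26 to 0.53, Kif11 -0.11 to 0.64, Kif2c -0.026 to 0.39, Esr1 -0.59 to 0.089, Cyp1a2 -0.040 to 0.19, Cyp1b1 -0.76 to 0.53, Nqo1 -0.58 to 0.51, Ahrr -0.45 to 0.42, Aldh3a1 -0.17 to 0.032, Hmox1 -0.78 to 1.10, Nfe2l2 -0.17 to 0.062, Arnt -0.16 to 0.0084, Gper1 -0.040 to 0.081, Nr3c1 -0.24 to 0.024, Esrra -0.035 to 0.35. The sign also turned with quantile normalization for Prc1 (-0.0037), Nqo1 (-0.0071), Ahrr (-0.034), Nfe2l2 (0.019), Gper1 (-0.064). The sign also turned with median centring for Prc1 (-0.016), Top2a (-0.0050), Cyp1b1 (-0.024), Nqo1 (-0.025), Ahrr (-0.015), Gper1 (-0.037). The sign also turned without both rats with low AHR targets for Prc1 (-0.13), Top2a (-0.15), Ccnb2 (-0.12), Kif11 (-0.076), Kif2c (-0.013), Cyp1b1 (-0.25), Nqo1 (-0.085), Ahrr (-0.075), Hmox1 (-0.41), Gper1 (-0.062). The sign also turned with the muscle covariate for Prc1 (-0.18), Top2a (-0.34), Ccnb2 (-0.040), Kif11 (-0.061), Esr1 (0.19), Cyp1b1 (-0.34), Nqo1 (-0.49), Ahrr (-0.42), Hmox1 (-0.26), Gper1 (-0.060). The sign also turned with array weights for Esr1 (0.20), Cyp1b1 (-0.41), Nqo1 (-0.44), Ahrr (-0.36), Gper1 (-0.059).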

Other observations

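Of 14 circadian clock genes tested none passed, and the median log2 difference was 0.13. The groups did not overlap in 3 members upward and 2 downward, against 4.48% and 3.48% of all tested probe sets. Nr1d1, a repressor of the circadian clock, read 601, 561 and 672 in the 3-MC rats and 1058, 853 and 997 in the E2+3-MC rats (log2 difference 0.65, adjusted p = 0.265, limma). Cry1, another clock repressor, read 73.6 to 106 against 40.3 to 64.3. Dbp, a clock output factor, read 312, 186 and 278 against 355, 333 and 492. Without 3-MC the E2 difference was -0.26 for Nr1d1 and -0.54 for Dbp, and the difference between both effects had unadjusted p-values of 0.000975 and 0.00177 but did not pass. These genes were named after their values were seen, and times of day were not used here.

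Immune lists varied more within groups than between them. The type I interferon list stood at 1.10, -0.57 and -0.54 in the 3-MC rats and -0.22, 0.55 and 0.79 in the E2+3-MC rats, and none of its 16 members passed. The lymphocyte list had a median difference of 0.28 and the chemokine list 0.18, with no member passing. With single rats left out these medians ranged from 0.051 to 0.58 and from -0.12 to 0.42, and the chemokine Ccl11 passed downward without 3-MC rat 2.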
